A study of Mus musculus with 8 samples.

Results

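The genes described here are 53 regulators of embryonic patterning from 10 families: 14 Nkx, 8 Pax, 8 Lhx, 6 Irx, 4 Dlx, 5 sine oculis homologues (Six3 and its relatives), and 2 each of Otx, Emx, En and Gbx. They were chosen by symbol, as the protein-coding autosomal RefSeq genes whose whole name is a family name and a number, without Pax9, Six2, Dlx5 and Dlx6, and they are 53 of 20661 such genes. The rule reads symbols only, though the families were proposed with earlier results of these data in view. Chromatin immunoprecipitation sequencing had been run on mesenchymal stem and progenitor cells (MSPCs), the stromal cells that give rise to bone, fat and cartilage, grown from mouse bone marrow. Asxl1-/- cells lack ASXL1, a chromatin regulator that is mutated in myeloid malignancies, and were compared with wild-type cells. The histone marks H3K4me3, H3K4me2 and H3K27me3 were profiled in Asxl1-/- and in wild-type MSPCs, and ASXL1 itself in wild-type MSPCs only. Each target and genotype is represented by a single library, so the differences have no replicate check and the genotypes could not be tested against each other.

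All cells were of the C57BL/6 background and were used at passages 5 to 10 in MesenCult medium. The labels do not give the exons deleted in Asxl1-/-, the number of mice behind a culture, or whether the cells of the 7 libraries were the same cultures. The islands cannot check the genotype, since ASXL1 was not profiled in Asxl1-/-. An input library was not analysed here. The deposited values are islands, stretches of the genome called as enriched, with no read count or score, so depth is unknown and the strength of a mark cannot be given. A gene carries a mark here when an island comes within 1000 bp of one of its ends. A mark is lost when wild type alone has it and gained when Asxl1-/- alone has it.

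Homeobox genes code for transcription factors that bind DNA through a homeodomain and set the identity of organs, limbs and neurons in the embryo. The Pax genes are defined by another DNA-binding part, the paired domain, and Pax1 has no homeobox. In cells of other lineages such genes are usually held silent by Polycomb repressive complexes, which place H3K27me3 over wide domains. H3K4me3 sits at active or poised promoters, and H3K4me2 at promoters and enhancers. A promoter that carries H3K4me3 and H3K27me3 together is called bivalent and is typical of developmental genes in stem cells.

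The promoters of 4 genes on which the results turn are shown first. Nkx1-1 and Nkx6-1 had the widest islands among the members that lost H3K4me3, En1 lost its H3K27me3, and Emx2 had the widest ASXL1 island and no H3K27me3. Each line gives the 250 bases upstream of the RefSeq start (GRCm38.p6, the coordinates of mm10), read 5′ to 3′ along the gene's strand, with CpG dinucleotides in capitals. Nkx1-1 lies on the minus strand and its stretch is chr5:33434091-33434340. Nkx6-1 lies on the minus strand and its stretch is chr5:101664712-101664961. En1 lies on the plus strand and its stretch is chr1:120602237-120602486. Emx2 lies on the plus strand and its stretch is chr19:59458440-59458689.
Nkx1-1: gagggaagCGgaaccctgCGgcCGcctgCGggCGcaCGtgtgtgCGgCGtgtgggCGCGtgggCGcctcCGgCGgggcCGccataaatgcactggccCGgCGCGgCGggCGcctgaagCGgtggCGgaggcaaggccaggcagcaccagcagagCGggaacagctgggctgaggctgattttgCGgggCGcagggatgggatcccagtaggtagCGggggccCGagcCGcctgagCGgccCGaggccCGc
Nkx6-1: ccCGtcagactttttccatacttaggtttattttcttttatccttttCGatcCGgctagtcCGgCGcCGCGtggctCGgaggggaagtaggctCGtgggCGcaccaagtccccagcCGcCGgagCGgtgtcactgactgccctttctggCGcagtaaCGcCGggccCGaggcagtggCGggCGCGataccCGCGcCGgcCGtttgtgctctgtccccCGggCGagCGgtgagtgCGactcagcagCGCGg
En1: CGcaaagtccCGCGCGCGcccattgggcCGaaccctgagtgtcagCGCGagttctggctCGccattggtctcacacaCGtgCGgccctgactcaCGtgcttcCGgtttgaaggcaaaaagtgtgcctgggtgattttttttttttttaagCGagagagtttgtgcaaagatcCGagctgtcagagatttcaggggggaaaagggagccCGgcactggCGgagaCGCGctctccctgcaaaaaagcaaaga
Emx2: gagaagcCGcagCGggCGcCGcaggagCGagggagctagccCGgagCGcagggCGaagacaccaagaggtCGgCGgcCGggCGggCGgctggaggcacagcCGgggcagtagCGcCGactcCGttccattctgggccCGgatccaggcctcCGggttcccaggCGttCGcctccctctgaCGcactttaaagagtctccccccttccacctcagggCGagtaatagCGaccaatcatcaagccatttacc
These stretches held 30 CpGs in Nkx1-1, 30 in Nkx6-1, 19 in En1 and 24 in Emx2, against a median of 10.0 over the 16456 gene promoters with an entry.

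Facts of the whole series frame these values. The H3K4me3 list held 15276 islands in Asxl1-/- and 17884 in wild type, the H3K4me2 list 33589 in Asxl1-/- and 36048 in wild type, the H3K27me3 list 20249 in Asxl1-/- and 17712 in wild type, and the ASXL1 list of wild type held 17419. Of the stromal marker genes, 12 of 12 carried H3K4me3 in Asxl1-/- and 12 of 12 in wild type. Of the markers of other cells, H3K4me3 was present at 1 of 7 blood genes (Spi1) in each genotype, at 1 of 6 endothelial genes in Asxl1-/- and 2 of 6 in wild type, and at 2 of 6 neural genes in each, and Ptprc, Pecam1 and Sox10 had none in either. The length covered in Asxl1-/- over that in wild type differed between chromosomes, from 0.7 to 1.45 for H3K4me3, from 0.532 to 1.35 for H3K4me2 and from 0.222 to 2.09 for H3K27me3. The ratio of a gene's chromosome is therefore given beside results that move with it.

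The 53 genes were mostly under H3K27me3 in both genotypes. H3K27me3 was present at 45 of 53 genes (84.9%, 95% exact binomial interval 72.4 to 93.3) in Asxl1-/- and at 48 (90.6%, 79.3 to 96.9) in wild type, against 24.4% of all autosomal protein-coding genes in Asxl1-/- and 27.4% in wild type. Intervals cover counting error only. H3K4me2 was present at 44 genes (83.0%) in Asxl1-/- and at 42 (79.2%) in wild type, against 65.7% of all genes in Asxl1-/- and 64.7% in wild type. H3K4me3 was present at 25 genes (47.2%, 33.3 to 61.4) in Asxl1-/- and at 32 (60.4%, 46.0 to 73.5) in wild type, while the share among all genes was 59.6% in Asxl1-/- and 59.8% in wild type. ASXL1 was at 16 genes (30.2%, 18.3 to 44.3) in wild type, against 51.4% of all genes.

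**Figure D1:**
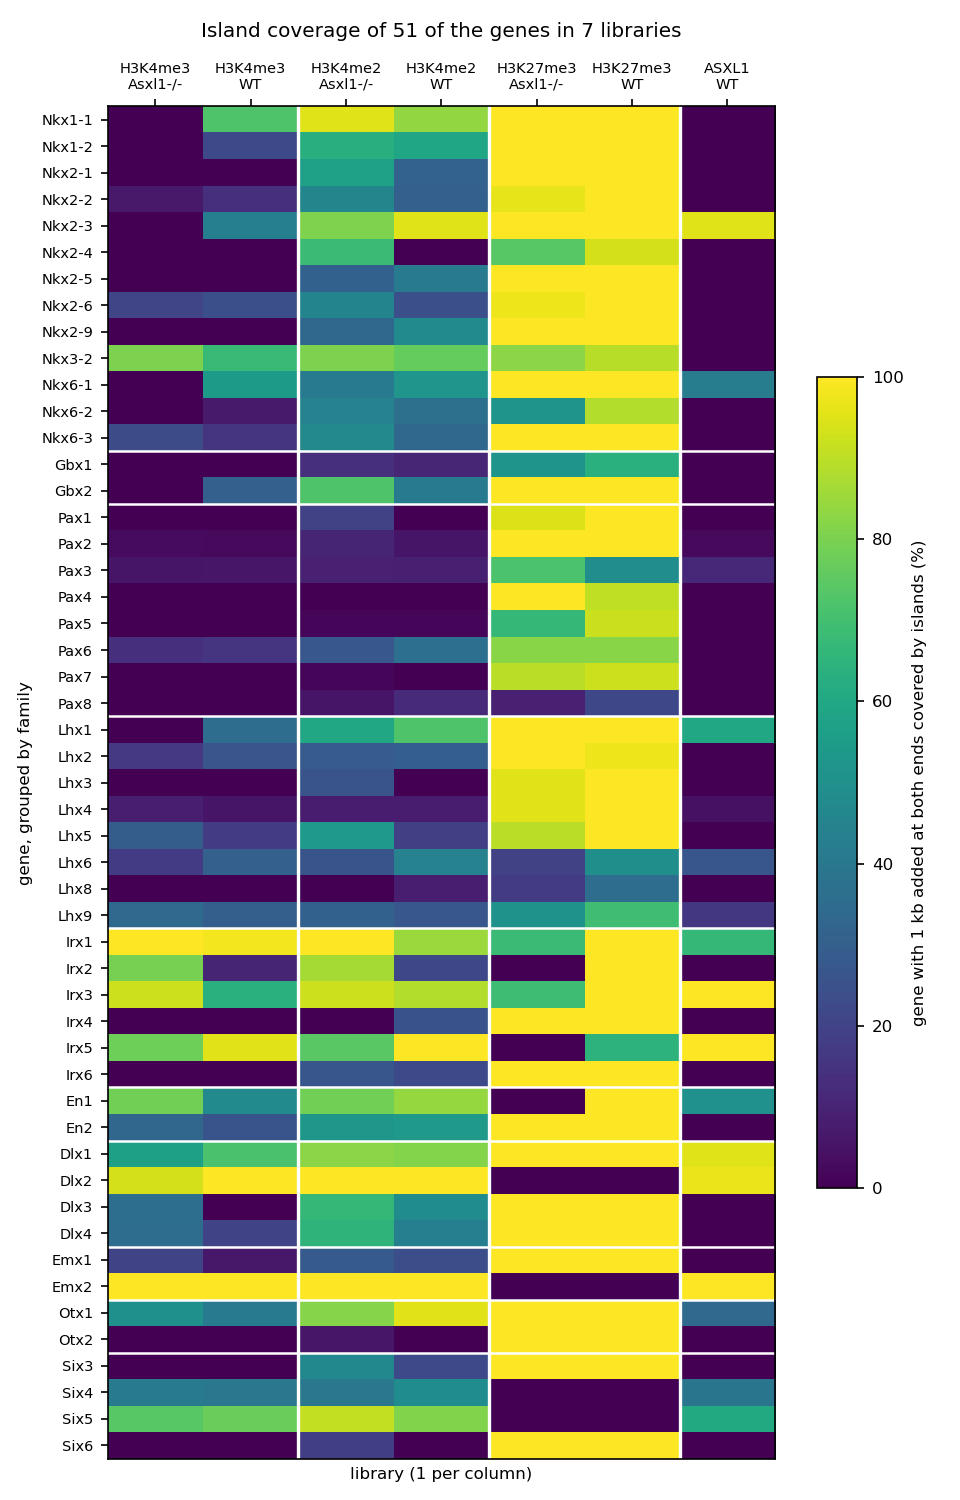
Each row is 1 of 51 genes, grouped by family, and each column 1 library. The colour gives the percent of the gene, with 1000 bp added at both ends, that islands cover. The H3K27me3 columns are bright for most genes, Nkx1-1, Nkx2-3 and Nkx6-1 are dark in the H3K4me3 column of Asxl1-/- and not in that of wild type, and Dlx2, Emx2, Six4 and Six5 have no H3K27me3 in either genotype.

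The H3K27me3 domains of these genes were wide, and none of the 53 lacked both H3K4me3 and H3K27me3. The widest H3K27me3 island at a marked gene had a median width of 27.4 kb in Asxl1-/- and 36.4 kb in wild type, against 13.2 kb in Asxl1-/- and 13.6 kb in wild type over all marked genes. Where the strand is known, the domain reached both gene ends at 25 of 32 marked genes (78.1%) in Asxl1-/- and at 29 of 34 (85.3%) in wild type, against 45.8% of all marked genes in Asxl1-/- and 42.2% in wild type. In Asxl1-/- 17 genes were bivalent, with both marks at the same end, 28 carried H3K27me3 without H3K4me3 and 8 carried H3K4me3 without H3K27me3. In wild type 27 were bivalent, 21 carried H3K27me3 alone and 5 carried H3K4me3 alone. Of all genes 9.71% were bivalent in Asxl1-/- and 12.4% in wild type, 13.2% carried H3K27me3 alone in each, and 48.4% carried H3K4me3 alone in Asxl1-/- and 45.6% in wild type. In bulk cells, both marks on 1 chromosome and each in different cells cannot be told apart, nor can a mark in fewer cells and less of it in each cell. The H3K4me3 island at a bivalent gene lay wholly inside H3K27me3 islands at 13 of 17 genes in Asxl1-/- and at 25 of 27 in wild type. The same share over all bivalent genes was not computed. Of the 27 bivalent genes of wild type, 15 were bivalent in Asxl1-/- too, 9 had H3K27me3 alone and 3 had H3K4me3 alone. Of the 2565 bivalent genes of wild type in the whole set, 1495 (58.3%) were bivalent in Asxl1-/-, 264 (10.3%) had H3K27me3 alone and 714 (27.8%) had H3K4me3 alone.

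H3K4me3 was lost at 9 members and gained at 2. The 9 were 28.1% (13.7 to 46.7) of the 32 members with the mark in wild type, where 4.18% of all such genes lost it. The 2 that gained it were 9.52% (1.17 to 30.4) of the 21 without it, where 5.63% of all such genes did. Bivalent genes lost H3K4me3 more often throughout the genome, so the members were also set beside those. The 9 lost genes were all bivalent in wild type and are 33.3% (16.5 to 54) of the 27 bivalent members, against 11.7% of all bivalent genes. None of the 5 members with H3K4me3 but no H3K27me3 lost it (interval 0 to 52.2%), where 2.03% of such genes did.

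Over all bivalent genes, the share that lost H3K4me3 fell with the width of the island, while in the members it did not fall steadily. Among bivalent genes with a wild-type H3K4me3 island under 2 kb, 6 of 12 members lost it (50%, 21.1 to 78.9), against 31.9% of all. With an island of 2 to under 4 kb it was 1 of 8 members against 6.92%, and with 4 kb or wider it was 2 of 7 members (28.6%, 3.67 to 71) against 1.82%. These classes were drawn after the values were seen, and each holds few members. With the H3K4me3 lists of both genotypes cut to the same number of widest islands, 5 of 25 members lost the mark (20%, against 2.67% of all genes) and 5 of 28 gained it (17.9%, against 9.39%). With the wider 50% of each list, 3 of 14 lost it (21.4%, against 18.3% of all genes) and 2 of 39 gained it (5.13%, against 7.98%). The part of library depth was not tested.

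**Figure D2:**
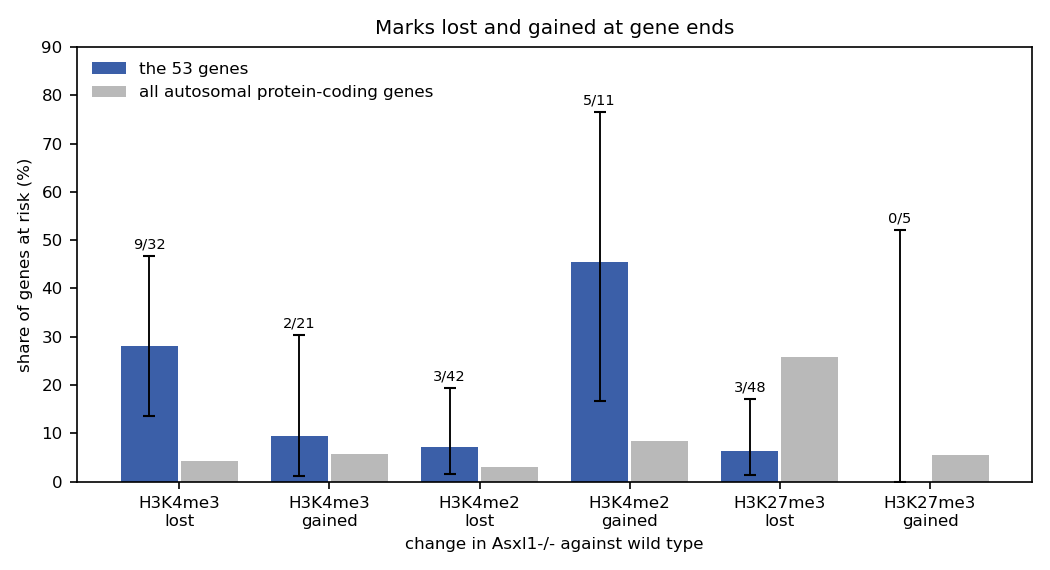
Bars give the percent of genes that lost or gained a mark in Asxl1-/- against wild type, of those that could, for the 53 genes (blue, with the counts above and 95% exact binomial intervals) and for all autosomal protein-coding genes (grey). H3K4me3 losses (9 of 32) and H3K4me2 gains (5 of 11) stand above the grey bars by more than their counting error, and H3K27me3 losses (3 of 48) stand below. Not drawn are 2 closer backgrounds. Of genes with H3K27me3, 17.7% gained H3K4me2, and of genes with an H3K27me3 island of 10 kb or wider, 16.4% lost it. The members' intervals in these classes include both shares.

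The Nkx family, regulators of ventral neural tube, heart, gut, pancreas and other organs, held 7 of the 9 losses. H3K4me3 was present at 3 of 14 Nkx genes in Asxl1-/- and at 10 of 14 in wild type, whereas the other 39 members had it at 22 genes in Asxl1-/- and 22 in wild type. All 14 Nkx genes carried H3K27me3 in both genotypes, and H3K4me2 was present at 14 in Asxl1-/- and 13 in wild type. At the RefSeq starts the Nkx losses of H3K4me3 were Nkx1-1, Nkx6-1 and Nkx6-2 only, and some Nkx genes have no promoter entry. The family was singled out after its values were seen.

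At Nkx6-1 (chr5:101659184-101664711), which sets pancreatic beta cell and motor neuron progenitor identity, no H3K4me3 was called in Asxl1-/-, against an island of 4.2 kb in wild type. Its H3K4me2 island was 3.4 kb in Asxl1-/- and 4.2 kb in wild type, and its H3K27me3 island 13.4 kb in Asxl1-/- and 33.8 kb in wild type. Nkx1-1 (chr5:33430734-33434090) likewise had no H3K4me3 in Asxl1-/- and 4.2 kb in wild type, over both ends of a short gene. At Nkx1-1 the H3K27me3 domain stayed, at 133.8 kb in Asxl1-/- and 141.0 kb in wild type, and H3K4me2 measured 5.8 kb in Asxl1-/- and 5.0 kb in wild type. These were the 2 widest islands among the losses, and both were absent whole, with no H3K4me3 of Asxl1-/- over any of the wild-type island.

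The other Nkx losses were of narrower islands. Nkx2-3 (chr19:43612325-43615892), needed for spleen and gut-associated lymphoid tissue, had 2.4 kb of H3K4me3 in wild type. Nkx2-2 (chr2:147176485-147195434), a ventral spinal cord and islet regulator, lost 1.6 kb at its end, and H3K4me3 inside the gene brought the total over it to 1.4 kb in Asxl1-/-, against 2.8 kb in wild type. The remaining islands were small. Nkx1-2 (chr7:132596239-132599637), expressed in the caudal end of the embryo, had 1.2 kb in wild type. Nkx6-2 (chr7:139579376-139582797), a relative of Nkx6-1 in the neural tube, had 0.4 kb, which is 2 steps of the 200 bp grid on which islands were called. At Nkx1-2 and Nkx2-3 the lost island lay at the far end of the gene, and at the other losses with a known strand it reached the start end. The RefSeq start of Nkx2-2 lies 9032 bp inside the gene from that end, and had no H3K4me3 in either genotype.

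H3K4me3 stayed at Nkx3-2, Nkx2-6 and Nkx6-3. Nkx3-2, a repressor active in cartilage and axial skeleton and so the Nkx gene closest to the mesenchymal lineage, had 3.8 kb in Asxl1-/- and 3.2 kb in wild type. Nkx2-6 had 1.2 kb in Asxl1-/- and 1.4 kb in wild type, and Nkx6-3, a stomach regulator, had 1.8 kb in Asxl1-/- and 1.2 kb in wild type. Nkx2-1 (thyroid, lung and forebrain), Nkx2-4, Nkx2-5 (heart) and Nkx2-9 had no H3K4me3 in either genotype.

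Gbx2 and Pax6 were the other losses of H3K4me3. Gbx2 (chr1:89927962-89931176), which positions the boundary of midbrain and hindbrain, had none in Asxl1-/- and 1.6 kb in wild type, under an H3K27me3 domain of 100.2 kb in Asxl1-/- and 73.6 kb in wild type. An end of another gene, LOC102637806, lies 899 bp from the marked end of Gbx2. Pax6 (chr2:105668896-105698410), the regulator of eye, forebrain and pancreas, lost a 1.0 kb H3K4me3 island and a 4.0 kb H3K4me2 island at its start end, and was the 1 member to lose both. H3K4me3 inside the Pax6 gene stayed, with 4.2 kb over the gene in Asxl1-/- and 4.8 kb in wild type. The other 8 losses kept H3K4me2, and all 9 kept H3K27me3. The chromosomes of the lost genes named here had H3K4me3 ratios of Asxl1-/- over wild type from 0.974 (chromosome 5) to 1.15 (chromosome 19). The ratio over all autosomes was 1.06. Chromosomes 5, 2 (0.996) and 7 (1.01) lay below it, and chromosomes 1 (1.09) and 19 above it. The part of the chromosome in these losses was not tested.

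The 2 gains of H3K4me3 joined an H3K27me3 domain that was already there. At Dlx3 (chr11:95120117-95125296), a regulator of hair, tooth and bone, Asxl1-/- had an island of 2.6 kb and wild type none. At Emx1 (chr6:85187931-85204463), a regulator of the cerebral cortex, Asxl1-/- had 1.8 kb at the start end, and wild type had 1.2 kb inside the gene only. Of genes with H3K27me3 and no H3K4me3 in wild type, 2 of 21 members and 9.65% of all genes gained H3K4me3, so the members' share was close to that of all genes. Chromosome 11, which holds Dlx3, had a ratio of 1.28 in H3K4me3, and chromosome 6, which holds Emx1, 1.01.

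**Figure D3:**
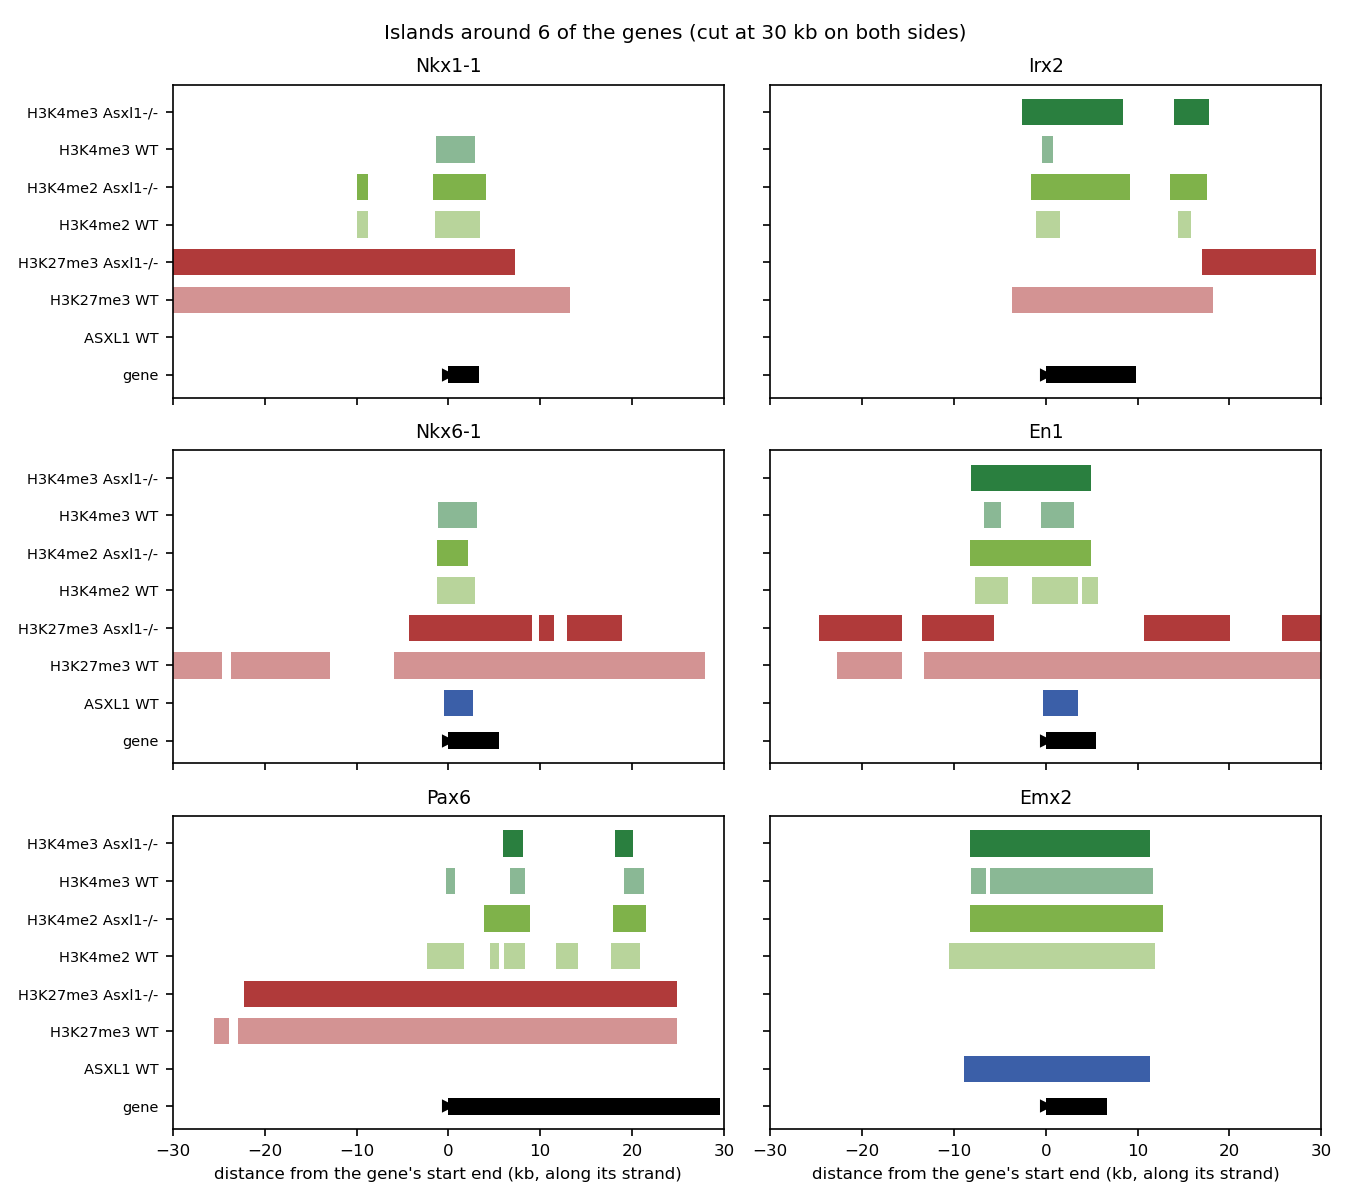
Islands within 30 kb of the start end of 6 genes, drawn along the gene's strand, with 1 row per library, Asxl1-/- above wild type for each mark, and the gene in black. At Nkx1-1, Nkx6-1 and Pax6 the H3K4me3 island at the start is absent in Asxl1-/- inside a domain of H3K27me3, at Irx2 and En1 the H3K27me3 is absent from the gene in Asxl1-/- where H3K4me3 is wide, and at Emx2 wide H3K4 marks coincide with ASXL1. The 6 genes were chosen after their values were seen.

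H3K27me3 was lost at 3 members, En1, Irx2 and Irx5, and gained at none. The 3 were 6.25% (1.31 to 17.2) of the 48 marked members, below the 25.8% of all marked genes. Width again matters here. Of all genes with an island of 10 kb or wider 16.4% lost it, against 3 of 46 members (6.52%, 1.37 to 17.9), an interval that includes the 16.4%. Of those with a narrower island 42.7% lost it, against 0 of 2 members. Gains were 0 of 5 members (interval 0 to 52.2%), against 5.6% of all genes without the mark.

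The 3 genes kept H3K4me3 without H3K27me3, and at 2 of them the H3K4me3 island was wider in Asxl1-/-. At Irx2 (chr13:72624430-72634196), of the Iroquois family that patterns limb, heart and nervous system, H3K27me3 was absent in Asxl1-/- and spanned 21.8 kb in wild type, of which Asxl1-/- still covered 1.2 kb. The H3K4me3 island at the Irx2 end was 11 kb in Asxl1-/- and 1.2 kb in wild type, and the H3K4me2 island 10.8 kb in Asxl1-/- and 2.6 kb in wild type. The RefSeq start of Irx2 lies 4390 bp inside the gene, and there both H3K4 marks were called in Asxl1-/- only. Irx2 is counted as bivalent in wild type because only gene ends are read. By covered length over the gene with 1000 bp added, Irx2 had the largest H3K4me3 difference (9.4 kb in Asxl1-/- and 1.2 kb in wild type) and the largest H3K4me2 difference (10.2 kb in Asxl1-/- and 2.6 kb in wild type) of all 53 genes. Chromosome 13 as a whole had a ratio of 0.793 in H3K4me3, 0.616 in H3K4me2 and 0.491 in H3K27me3, so the loss of H3K27me3 at Irx2 went with its chromosome and the wider H3K4 marks ran against it.

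At En1 (chr1:120602487-120607991), which patterns the midbrain and hindbrain, limb and dermis, no H3K27me3 reached a gene end in Asxl1-/-, against an island of 45.4 kb in wild type. Asxl1-/- still covered 23.4 kb of that domain beyond the gene. H3K4me3 at En1 measured 13.0 kb in Asxl1-/- and 3.6 kb in wild type. Chromosome 1 had a ratio of 1.34 in H3K27me3, so En1 ran against its chromosome. Irx5 (chr8:92357796-92361456), which acts with Irx3 in limb and heart, lost a whole H3K27me3 island of 11.6 kb, while its H3K4me3 island was 8.6 kb in Asxl1-/- and 10.2 kb in wild type. The H3K27me3 ratio of its chromosome was 0.687.

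The rest of the Irx and En genes kept H3K27me3. Irx1 and Irx3 were bivalent in both genotypes, with H3K4me3 islands of 10.6 kb in Asxl1-/- and 7.6 kb in wild type at Irx1, and 5.6 kb in Asxl1-/- and 5.0 kb in wild type at Irx3. En2, a cerebellar regulator, was bivalent too, with an H3K27me3 domain of 65.6 kb in Asxl1-/- and 108.2 kb in wild type. Irx4, a ventricular heart gene, and Irx6 had H3K27me3 and H3K4me2 without H3K4me3 in both genotypes.

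H3K4me2 was gained at 5 members and lost at 3. The 5 gains were 45.5% (16.7 to 76.6) of the 11 members without the mark in wild type, against 8.46% of all such genes and 17.7% of those with H3K27me3, a share that the interval includes. The gained islands were whole and narrow: 2.8 kb at Nkx2-4, 2.6 kb at Lhx3 (pituitary and motor neurons), 2.2 kb at Six6 (eye and pituitary), 1.8 kb at Pax7 (muscle stem cells and neural crest) and 1.0 kb at Pax2 (kidney). At Lhx3, Six6 and Pax2 the islands given lay at the far end of the gene, and at Pax2 a further one reached the start end. None of the 5 had H3K4me3 at an end in either genotype, and all 5 were under H3K27me3 in both.

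The 3 losses of H3K4me2 were 7.14% (1.5 to 19.5) of the 42 marked members, against 2.99% of all marked genes. They were Pax6 (4.0 kb), Pax8 (2.6 kb), a thyroid and kidney regulator, and Lhx8 (2.2 kb), of cholinergic neurons and tooth. Chromosome 3, which holds Lhx8, had a ratio of 0.532 in H3K4me2, and chromosome 2, which holds Pax6 and Pax8, 0.854. Over the gene bodies with 1000 bp added, H3K4me2 was longer in Asxl1-/- at 31 members (59.6%) and shorter at 16 (30.8%), of 52 with any, where 39.4% of all marked genes had more and 50.8% less. Of the members with H3K27me3 it was longer at 30 and shorter at 15 of 47, where 53.7% of all genes with H3K27me3 had more and 40.3% less.

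**Figure D4:**
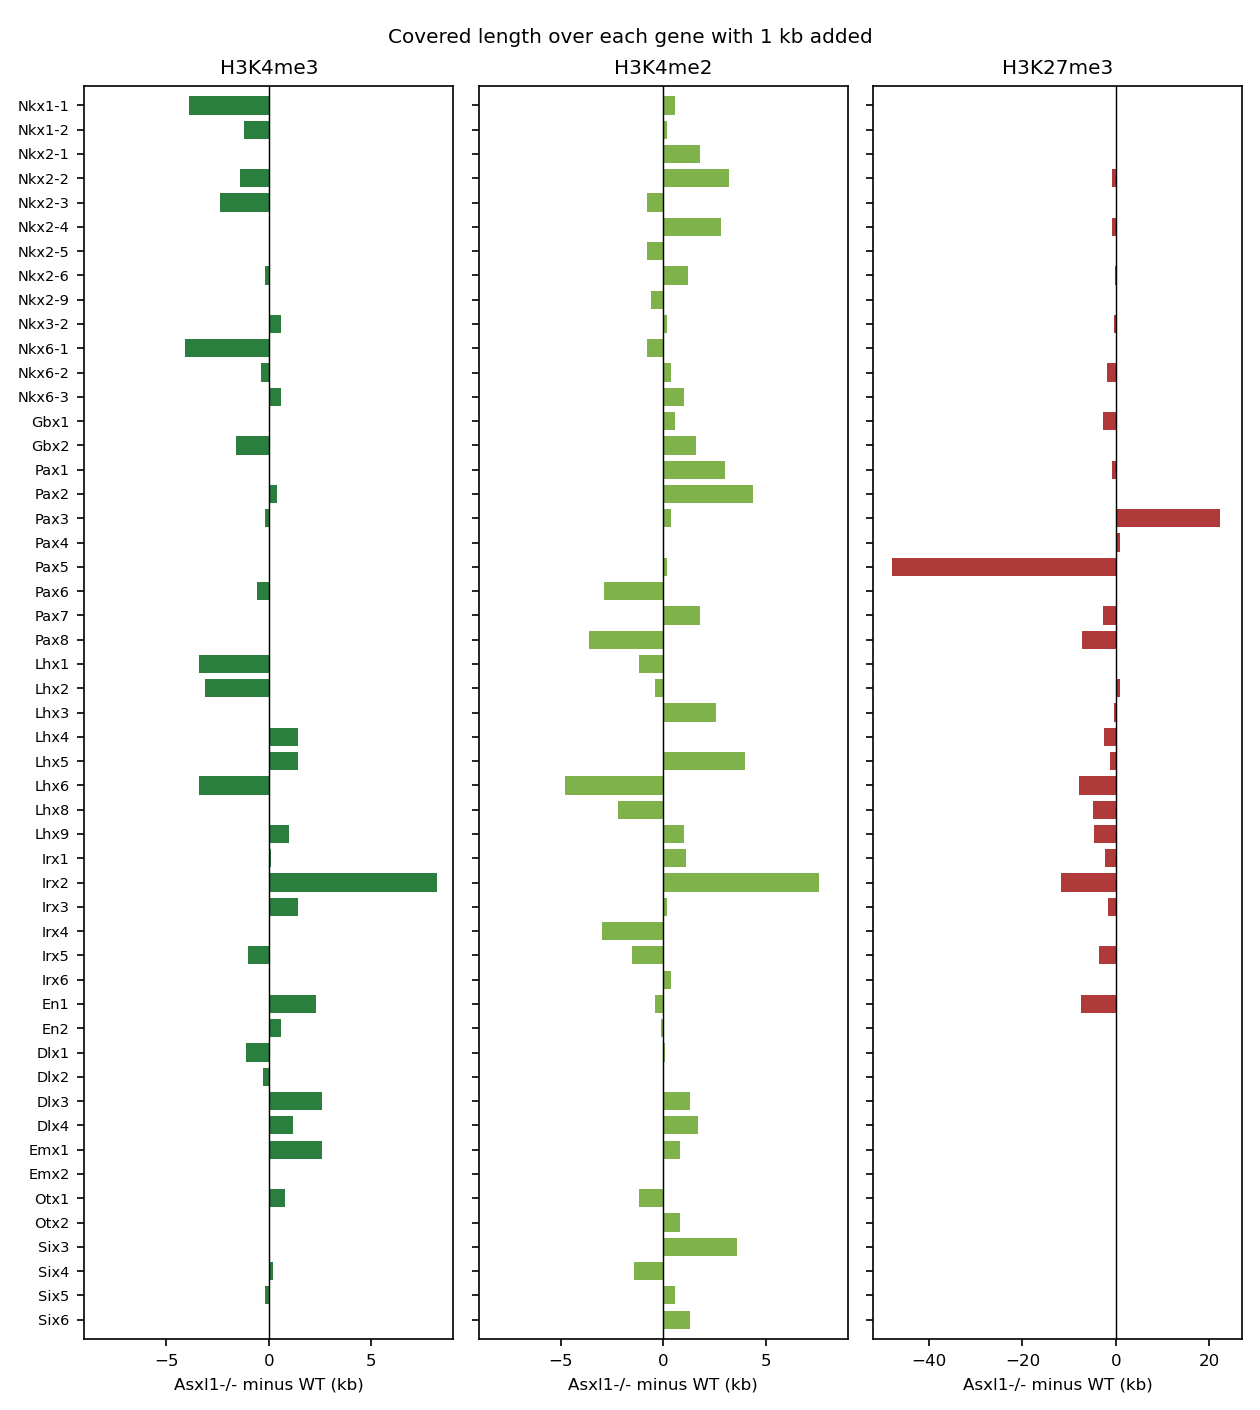
Covered length over each of 51 genes with 1000 bp added at both ends, Asxl1-/- minus wild type, in kb, 1 bar per gene and 1 panel per mark, in the family order of the coverage map, with a wider axis for H3K27me3. H3K4me2 bars point right at 31 genes and left at 16, H3K27me3 bars point left at 21 and right at 3, and Irx2 has the longest bar in both H3K4 panels. Genes covered whole by H3K27me3 in wild type cannot have a bar to the right in its panel.

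Summed over the 53 genes, H3K27me3 covered 802.2 kb in Asxl1-/- and 892.7 kb in wild type, of a span of 1110 kb. The ratio was 0.899, against 1.02 over all autosomal protein-coding genes. For the members on the 9 chromosomes near the autosomal median in the other marks it was 0.96. There was less in Asxl1-/- at 21 of 48 marked members (43.8%) and more at 3 (6.25%), where 51.3% of all marked genes had less and 37.6% more. Of all genes with H3K27me3 in wild type, 58.2% had less and 28.2% more. Many members were covered whole in wild type, such as Nkx1-1 and Pax2, and could not have more in Asxl1-/-. The share of all genes with this limit was not computed, so the shares with more cannot be compared. The median member was covered for 7.5 kb in Asxl1-/- and 8.1 kb in wild type. The largest difference was at Pax5, the regulator of B cell commitment, with 124.9 kb in Asxl1-/- and 172.9 kb in wild type. This 1 gene (-48.0 kb) makes up a large part of the summed difference and so of the ratio of 0.899. Chromosome 4, which holds it, had an H3K27me3 ratio of 0.619. Of the 3 increases the largest was at Pax3, of muscle and neural crest progenitors, with 70.1 kb in Asxl1-/- and 47.9 kb in wild type, on chromosome 1, where the ratio was 1.34. Pax8 had 5.2 kb in Asxl1-/- and 12.4 kb in wild type, and the decrease at Lhx6, of cortical interneurons, was alike, to 5.0 kb in Asxl1-/- against 13.0 kb in wild type.

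H3K4me3 covered 132.0 kb over the members in Asxl1-/- and 136.4 kb in wild type, a ratio of 0.968 against 1.05 over all genes, and H3K4me2 covered 249.8 kb in Asxl1-/- and 225.0 kb in wild type, a ratio of 1.11 against 0.942. The H3K4me3 ratio lay above 1 with lists of equal length (1.08), with 5000 bp added to the genes (1.02) and on chromosomes near the median (1.04), so its direction is not settled. H3K4me3 was longer in Asxl1-/- at 17 members (47.2% of 36 with any) and shorter at 18 (50%), where 52.5% of all marked genes had more and 37.5% less. Of genes with H3K27me3 in wild type, 56.0% had more and 38.0% less, and of the 31 members among them 15 had more and 16 less. Besides Irx2, Nkx6-1 and Nkx1-1, the largest H3K4me3 differences were in the Lhx family. Lhx6 had 4.6 kb in Asxl1-/- and 8.0 kb in wild type, and Lhx2, of eye and forebrain, had 5.4 kb in Asxl1-/- and 8.5 kb in wild type. Lhx1, a head organizer gene, kept H3K4me3 by the rule only through an island beyond its far end. That island was 6.4 kb in Asxl1-/- and covered 0.272% of the gene with 1000 bp added. Wild type had H3K4me3 over 4.2 kb of the same stretch. Wild type also had 3.4 kb over the gene, with an island at its start that Asxl1-/- lacked. With an overlap of at least 200 bp required, 10 of 32 members lost the mark, Lhx1 among them.

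For H3K4me2 the largest differences besides Irx2 pointed both ways. Lhx6 had 6.8 kb in Asxl1-/- and 11.6 kb in wild type, and Pax8 had 3.2 kb in Asxl1-/- and 6.8 kb in wild type. Pax2 had 9.6 kb in Asxl1-/- and 5.2 kb in wild type, and Lhx5, a relative of Lhx1, 6.2 kb in Asxl1-/- and 2.2 kb in wild type. Six3, of eye and forebrain, had 6.8 kb in Asxl1-/- and 3.2 kb in wild type. Lhx1, Lhx2, Lhx5, Lhx6, Lhx9 (a gonad regulator) and Pax3 were bivalent in both genotypes, Lhx1 in Asxl1-/- only by the island beyond its far end. Lhx4 had H3K27me3 alone at its ends, but H3K4me3 with H3K27me3 at its RefSeq start inside the gene, in both genotypes.

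The 5 members without H3K27me3 in either genotype had H3K4me3 and H3K4me2 in both, and ASXL1 in wild type. At Six4, which acts in muscle precursors, the H3K4me3 island was 6.8 kb in Asxl1-/- and 6.6 kb in wild type. Six5 had 7.6 kb in Asxl1-/- and 6.4 kb in wild type, but ends of Dmpk and Bhmg1 lie within 2000 bp of it, and an end of Mnat1 lies as near to Six4. Emx2, which patterns the cortex, the urogenital tract and the scapula, had 19.6 kb in Asxl1-/- and 17.8 kb in wild type. Dlx2, of forebrain interneurons and craniofacial mesenchyme, had 5.0 kb in Asxl1-/- and 11 kb in wild type. Its neighbour Dlx1, 9.4 kb away, was bivalent in both genotypes, as were Dlx4 and Otx1. The other members kept H3K27me3 without H3K4me3 at their ends in both genotypes: Gbx1, Otx2, Pax1, Pax4, Pax5, Pax7, Pax8, Pax2, Six3, Six6, Lhx3, Lhx4 and Lhx8, and the Irx and Nkx genes named above.

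ASXL1 in wild type went with H3K4me3 at these genes, as it did genome-wide. All 16 members with ASXL1 carried H3K4me3 and H3K4me2 in wild type, and 96.8% of all genes with ASXL1 carried H3K4me3. Where the strand is known, 11 of 11 had ASXL1 at the start end, as did 95.6% of all such genes, so both shares were near those of all genes. ASXL1 was present at 5 of 5 members with H3K4me3 alone, at 11 of 27 bivalent members and at 0 of 21 with H3K27me3 alone (interval 0 to 16.1%), against 92.5%, 48.5% and 3.47% of all genes in those states. Wide ASXL1 islands were at Emx2 (20.2 kb, the widest), Pax3 (13.6 kb), Dlx2 (10.2 kb), Irx3 (9.8 kb) and Nkx2-3 (9.6 kb). The median at marked members was 7.4 kb, against 5.2 kb over all genes with ASXL1.

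At 11 members ASXL1 and H3K27me3 shared an end: Dlx1, En1, Irx1, Irx3, Irx5, Lhx1, Lhx6, Nkx2-3, Nkx6-1, Otx1 and Pax3. In wild type H3K27me3 was at 68.8% of members with ASXL1, against 15.6% of all genes with ASXL1. It was at 100% of members without ASXL1, against 40.0% of all genes without it. Of the 16 ASXL1 islands, 9 lay wholly inside wild-type H3K27me3 islands and 4 did not touch one, counts that were not made over all genes. Of these 11 bivalent genes with ASXL1, 2 lost H3K4me3 (Nkx2-3 and Nkx6-1), against 3.3% of all such genes. Of the 16 bivalent members without ASXL1, 7 lost it (43.8%, 19.8 to 70.1), against 19.7% of all such genes. Regardless of H3K27me3, 2 of 16 members with ASXL1 lost H3K4me3, against 1.45% of all genes, and 7 of 16 without it did, against 17.7%. Most H3K4me3 losses at the members, 7 of 9, were thus at genes with no ASXL1 island in wild type. The same held for 368 of 517 losses over all genes and 260 of 301 over bivalent genes, so the members were much like these. Of the 7 members, all but Nkx1-1 had a wild-type H3K4me3 island of 1.6 kb or less, and the part of width in this was not tested. Lhx4, Lhx9 and Pax2 had ASXL1 inside the gene but at neither end. At Lhx4 it lay at the RefSeq start, 9699 bp from the gene end, with H3K4me3, H3K4me2 and H3K27me3 in both genotypes. Lhx4 is counted above as H3K27me3 alone and without ASXL1 because only gene ends are read.

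A RefSeq promoter entry was found for 38 of 53 members. Their 250 upstream bases held a median of 14.5 CpGs (4 to 33), against 10.0 over all entries, and a median G+C content of 61.8%, against 55.6%. The median was 18.5 CpGs at the 8 members that lost H3K4me3, 19.0 at the 13 that kept it, 30 at the 1 that gained it, and 10.5 at the 16 without it in either genotype, so the unmarked promoters had the lowest median. Searched on both strands, GGGCGG was present in 24 of the 38 promoters (63.2%, against 43.6% of all), CCAAT in 16 (42.1%, against 36.3%), TATAAA in 2 (5.26%, against 12.5%) and the homeodomain core TAATTA in 1 (2.63%, against 4.39%). A match is a string of letters, not a bound site. With marks taken at the RefSeq starts instead of the gene ends, 6 of 19 members lost H3K4me3, against 3.63% of all genes, and they were Gbx2, Lhx1, Nkx1-1, Nkx6-1, Nkx6-2 and Pax6.

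Related genes gave a mixed picture. Of the 4 genes of these families that the rule left out, Six2 (a nephron progenitor regulator) lost a 7.8 kb H3K4me3 island and Pax9 (vertebral column, tooth) one of 2.2 kb, while Dlx5 and Dlx6, regulators of osteoblasts and limb, kept theirs. All 4 were bivalent in wild type and 2 were in Asxl1-/-. Of 25 other homeobox genes, such as Msx1, Prrx1 and Isl1, H3K4me3 was lost at 2 of 15 marked genes, Meox2 (10.6 kb) among them, against 4.18% of all. It was gained at 3 of 10 unmarked ones, among them Pitx1 (9.6 kb) and Alx4 (1.0 kb), against 5.63% of all. In this list 11 of 25 genes were bivalent in Asxl1-/- and 12 in wild type, against 9.71% of all genes in Asxl1-/- and 12.4% in wild type. The 39 Hox genes, the clustered homeobox genes of the body axis, lost H3K4me3 at 1 of 24 marked genes and gained it at 7 of 15 unmarked ones, against 4.18% and 5.63% of all genes. The 7 gains lay on chromosomes 11 and 15, whose H3K4me3 ratios were 1.28 and 1.19, and at Hoxb5 and Hoxb6 the gained islands had the same width (14.6 kb).

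Partners of these factors, such as the Eya phosphatases that act with sine oculis homologues and the Pbx and Meis cofactors, mostly carried H3K4me3 in both genotypes. Of 17 genes, 15 carried H3K4me3 in Asxl1-/- and 16 in wild type, against 59.6% and 59.8% of all genes. It was lost at 1 of the 16, Eya2 (3.4 kb), against 4.18% of all, and 12 of the 17 had ASXL1, against 51.4% of all. H3K27me3 was lost at 1 of 4 marked genes, Meis3 (12.4 kb), against 25.8% of all. It was gained at 1 of 13 unmarked ones, Eya4 (6.4 kb), against 5.6% of all. A further list held 16 proneural basic helix-loop-helix genes, which are usually silent outside their lineage. Expression of these genes and of the members was not measured. H3K4me3 was lost at 0 of 4 (against 4.18% of all) and gained at 1 of 12 (against 5.63%), Neurod1 (1.4 kb). H3K4me2 was gained there at 4 of 9 unmarked genes (against 8.46% of all such genes and 17.7% of those with H3K27me3). They were Bhlhe23 and Olig1 (2.2 kb each), Neurog1 (1.8 kb) and Ptf1a (1.4 kb). H3K4me2 was lost at 1 of 7, Olig2 (2.4 kb), against 2.99% of all. H3K27me3 was lost at 1 of 15, Neurod6 (12.4 kb), against 25.8% of all.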

How the data were processed

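Chromatin immunoprecipitation sequencing measured ASXL1 and 3 histone marks in 7 libraries, 1 per group. Per the submitters' processing notes, the tools were BWA and SICER 1.1 and the genome build mm10, while settings and controls of the calling are not stated in these sources. The authors' deposited lists hold only the chromosome, start and end of each island, on a 200 bp grid. No depth is known, and width took the place of the planned stricter threshold.

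Gene ends came from RefSeq GRCm38.p6, without exons, introns or UTRs. An island marked a gene when at least 1 bp of it lay within 1000 bp of an end. Covered length was taken over the gene with 1000 bp added at both ends. Background shares are over 20661 autosomal protein-coding genes. Members' shares carry 95% exact Clopper-Pearson intervals. The calculations used Python 3.11.15, pandas 2.3.3 and scipy 1.17.1, and the code was tested on simulated lists. Alternatives changed the window, the overlap, the island set, the gene set and the chromosomes.

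Named are the members that lost or gained H3K4me3 or H3K4me2, the 8 widest H3K27me3 changes in each direction (3 lost, 0 gained), the 6 largest length differences per mark, the 6 widest ASXL1 islands, members with ASXL1 and H3K27me3 at the same end, and up to 4 changed genes per related list, with further ones, chosen after their values were seen, where a count was 5 or fewer. Members and lists were chosen with earlier results of these data known. Width classes, bivalent backgrounds, RefSeq starts, the printed promoters and the mapped genes were chosen after the values were seen. A few genes are counted but not named or drawn here.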

Additional observations from a re-analysis of the deposited data

How the results depend on the processing

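Of 107 alternatives over 12 results, 84 left the share inside the interval of the reported one with a count within 1.5 times, or the length ratio on its side of 1. In the wider 50% of each list, H3K4me3 was lost at 21.4% (3 of 14 members), against 18.3% of all genes. H3K4me2 was gained there at 32.1% (9 of 28, against 9.64%), at none of the 5 genes reported above. H3K27me3 was lost there at 10.9% (5 of 46, against 32%). In that setting 9.43% (5) of members in Asxl1-/- and 17% (9) in wild type were bivalent, against 2.35% and 2.92% of all genes. With lists of equal length H3K4me3 was lost at 20% (5 of 25, against 2.67% of all genes) and gained at 17.9% (5 of 28, against 9.39%). With these lists 17 members in Asxl1-/- and 20 in wild type were bivalent, against 9.1% and 10.5% of all genes. With any island over the gene, H3K4me3 was gained at 5.56% (1 of 18), against 5.38% of all genes. H3K4me2 was then lost at 2.17% (1 of 46, against 2.95%) and gained at 85.7% (6 of 7, against 9.36%). H3K4me3 was gained at 5% (1 of 20) with 2000 bp around gene ends, against 5.76% of all genes, and at 5% (1 of 20) with neighbours counted as 1 locus. At RefSeq starts, added after the data were seen, 23.7% (9 of 38) of members in Asxl1-/- and 39.5% (15) in wild type were bivalent. On the 2 chromosomes near the median (6 and 19), H3K4me3 was lost at 50% (1 of 2, against 3.16% of all genes there) and gained at 33.3% (1 of 3, against 4.91%). H3K4me2 was lost on them at 0% (0 of 3, against 2.51%) and gained at 50% (1 of 2, against 7.7%). ASXL1 was at 40% (2 of 5, against 51.8%). These shares rest on 5 members or fewer. On the 10 chromosomes near the median for the bivalent state, 31.4% (11 of 35) were bivalent in Asxl1-/-, against 9.66% of all genes there. That was close to the reported 32.1%. The H3K4me3 length ratio of 0.968 turned to 1.02 with 5000 bp added, 1.08 with lists of equal length and 1.04 on chromosomes 6 and 19. Apart from fewer islands or members in a setting, the cause was not tested. No paired analysis was possible because each group is 1 library, and for the same reason no library could be left out. Depth limits every call: the lists cannot tell a weak signal from an absent mark.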

Other observations

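Of 9 RNA genes named as antisense or opposite-strand partners of members, and looked up after the member results were known, 2 differed in H3K4me3. Pax6os1 had neither H3K4me3 nor H3K4me2 at an end in Asxl1-/- and both in wild type, and its end near 105670330 on chromosome 2 lies beside the start of Pax6. Lhx1os had no H3K4me3 in Asxl1-/- and had it in wild type, next to the start of Lhx1. Dlx1as, Irx3os, Dlx4os and Emx2os carried H3K4me3 in both genotypes, and Nkx2-2os, Otx2os1 and Six3os1 in neither. Emx2os was the 1 of the 9 without H3K27me3 in either genotype. Island lists carry no strand, so the marks between such a pair cannot be told apart.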
